A study of Bos taurus with 34 samples.

Results

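The ampulla and the uterine body are the far ends of the reproductive tract sampled here, in 5 nulliparous Holstein heifers killed on day 2 after ovulation. The ampulla is the wide part of the oviduct near the ovary, its lining is the endosalpinx, and the uterine body is where the horns of the uterus join above the cervix. The comparison takes the 10 ampulla libraries, 1 from the side that ovulated (ipsilateral) and 1 from the other side (contralateral) of each heifer, and the 5 uterine body libraries, 1 per heifer by the labels. Those 15 libraries belong to a series of 34 that also holds 9 upper horn and 10 mid horn libraries. All heifers had their cycles synchronised with a 5-day CIDR-Synch protocol, so every group shares that treatment and the same day. The heifers are numbered 10872, 10882, 11033, 11070 and 11110, and where 5 values of a region are given they stand in that order. RNA came from bead-homogenised tissue, and the labels do not say how the lining was separated from the wall, so which layers a sample held is not given. In such bulk samples fewer cells of a type and less RNA per cell cannot be told apart. No sequence is shown, as the sources used here hold none for these transcripts.

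The ampulla is where fertilisation takes place and where the young embryo spends its first days. Its folded lining is an epithelium of ciliated cells, which carry motile cilia, and of secretory cells, which release glycoproteins into the fluid around the gametes. The lining of the uterus has epithelium and glands above a thick stroma rich in vessels, and it receives the embryo later. Both organs form from the Müllerian duct, along which HOX genes of rising number are switched on from front to back.

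Total counts ran from 13971411 to 23380367 in the ampulla libraries and from 15182060 to 26957480 in the uterine body libraries. Values are given as CPM, counts scaled to a common TMM-adjusted library total, and a mean ± SD is over 5 heifers after averaging the sides of a heifer. CPM values of different genes are not compared, since they are not per length and counting by transcript can lower genes with several transcripts. Ribosomal RNA features took 25.4% of counts in the uterine body of heifer 11033 and 11.9% in the contralateral ampulla of heifer 11110. LOC112444681, not counted among those features, took a further 15.3% and 13.5% there. In the contralateral ampulla of heifer 10882 the shares were 6.3% and 9.0%. The contralateral ampulla of heifer 11070 had the fewest transcripts detected of the 15, 15773. On the first principal component, which held 64.3% of the variance, the ampulla libraries lay between 41.5 and 108 and the uterine body libraries between -176 and -139.

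Of 14175 transcripts tested, 7903, or 55.8%, were called between ampulla and uterine body at an edgeR adjusted p under 0.05. In the ampulla 3481 transcripts, 24.6%, were higher and 4422, 31.2%, were lower, and at 8-fold or more 768 were higher and 1304 lower. The libraries of the regions did not overlap for 1677 transcripts that were higher in the ampulla, 11.8%, and for 1992 that were lower, 14.1%, together 25.9%. Counted by gene with 1 transcript each, 2113 of 7919 genes with an official symbol were higher in the ampulla and 2461 were lower, and 4073 of these 4574 genes moved the same way in all 5 heifers. Log2 fold changes are ampulla over uterine body. Their standard error comes from the fold change and F value of the edgeR fit of 15 libraries, with heifer as block. The ampulla libraries of a heifer entered that fit separately, so the error is not a spread over 5 heifers. With the ampulla libraries of a heifer summed, 7472 of 14638 transcripts were called. The median over all transcripts was -0.19. Counts from the gene lists below stand beside the 24.6% of all transcripts called higher and the 31.2% called lower. Counts without overlap stand beside 11.8% and 14.1%. Overlap is not stated for every gene below, and genes given without it can overlap, as KRT19, HOXA5, HOXB2, PRELP and SLC15A2 did.

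**Figure D1:**
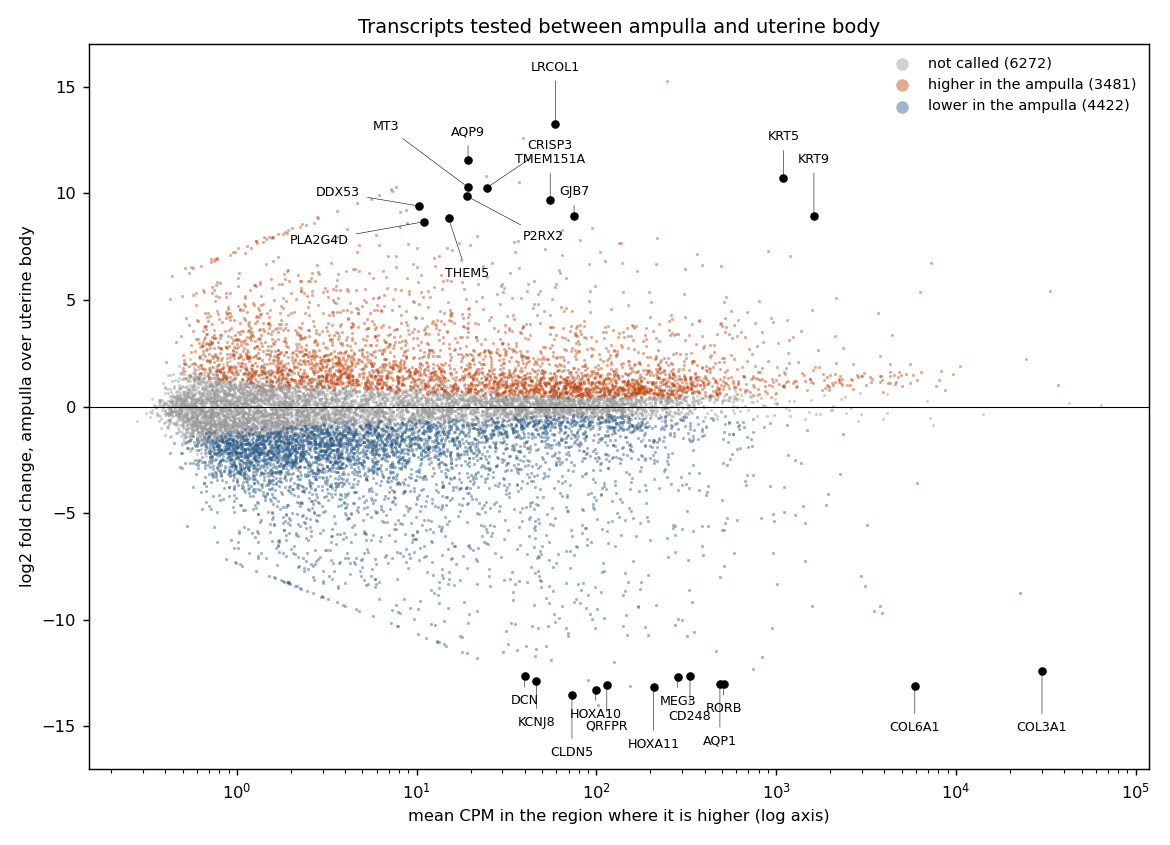
Log2 fold change of each tested transcript, ampulla over uterine body (y axis), against its mean CPM in the region where it was higher (x axis, log scale). Labelled black points are the 12 genes highest and the 12 lowest by fold change among those at 10 CPM or more and moving the same way in 5 of 5 heifers; they lie at 8.67 and above or at -12.39 and below.

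The genes with the largest excess in the ampulla were close to silent in the uterine body. LRCOL1, which codes for a colipase-like protein, had 30.2 to 99.97 CPM in the ampulla libraries, with a median of 56.9, and 0 counts in all 5 uterine body libraries, which puts it at least 2442-fold higher. AQP9, an aquaglyceroporin that passes water and glycerol, had 6.79 to 37.6 CPM with a median of 18.7, also against 0 counts, at least 772-fold. KRT5, a keratin of basal cells in layered epithelia, had 748 to 1604 CPM with a median of 1100.4 in the ampulla, against 0.670, 0.259, 0.111, 1.11 and 1.38 CPM in the uterine body. Its log2 fold change was 10.73 ± 0.45 (edgeR adjusted p 6.15e-11). The ampulla and uterine body libraries did not overlap in any of these 3 genes. KRT9, a keratin best known from the thick skin of palms and soles, had 1133 to 2148 CPM with a median of 1643, against 2.49, 2.04, 0.945, 4.61 and 10.1 CPM, and rose by 8.92 ± 0.50 on the log2 scale.

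Of the 12 genes, 6 rested on 1 to 3 counts in the whole uterine body. MT3, a metallothionein that binds zinc and copper, averaged 19.2 ± 11.1 CPM in the ampulla and had 1 count in the uterine body, a ratio of 2214 (counting interval 397 to 87481). CRISP3, a cysteine-rich secretory protein, averaged 24.5 ± 18.3 CPM, with 2 counts in the uterine body and a ratio of 1606 (counting interval 444 to 13263). P2RX2, an ion channel opened by ATP, averaged 19.1 ± 9.398 CPM, with 2 counts and a ratio of 1212 (counting interval 335 to 10012). The heifers differed in these genes: CRISP3 ran from 4.103 to 64.5 CPM among ampulla libraries and P2RX2 from 4.48 to 42.1. GJB7, a connexin, rose by 8.92 ± 0.49 to 75.2 ± 37.8 CPM, and the membrane protein gene TMEM151A by 9.66 ± 0.61 on the log2 scale to 55.4 ± 14.7 CPM. The helicase gene DDX53, the acyl-CoA thioesterase gene THEM5 and the phospholipase gene PLA2G4D averaged 10.4 ± 4.76, 15.1 ± 6.52 and 11.01 ± 4.72 CPM in the ampulla, with 1, 3 and 2 counts in the uterine body.

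At the other end stood genes of vessels, stroma and uterine identity. CLDN5, the tight-junction claudin of endothelium, had 0 counts in 10 ampulla libraries, against 58.2, 81.8, 71.5, 68.6 and 85.8 CPM in the uterine body, so it was at least 4534-fold lower in the ampulla. KCNJ8, a subunit of ATP-sensitive potassium channels of vessel walls, and DCN, the matrix proteoglycan decorin, also had 0 ampulla counts, against 46.4 ± 17.1 and 39.9 ± 14.3 CPM, at least 3032 and 2408-fold. COL3A1, the fibrillar collagen of soft tissues, had 0.0947 to 19.2 CPM and a median of 9.37 in the ampulla, against 23675, 34573, 27633, 42409 and 22337 CPM, and fell by 12.39 on the log2 scale with a standard error of 0.81. Its lowest ampulla values were both from heifer 10882, at 0.0947 ipsilateral and 0.117 contralateral, while the other 8 libraries had 6.93 or more. COL6A1, a chain of the collagen of cell surfaces, had 0 to 1.52 CPM in the ampulla, against 4751, 5373, 4100.2, 9725 and 5599 CPM.

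The rest of the 12 lowest were regulators, channels and receptors. RORB, an orphan nuclear receptor, had 0 to 0.534 CPM (median 0) in the ampulla, against 312, 520.4, 571, 662 and 485 CPM in the uterine body (edgeR adjusted p 3.14e-11). AQP1, the water channel of capillaries, had 0 to 0.169 CPM with a median of 0.0246, against 929, 356, 258, 516 and 376 CPM. QRFPR, a receptor for the RF-amide peptide QRFP, had 2 counts over the ampulla libraries together, both in the contralateral ampulla of heifer 11033. It had 114 ± 63.8 CPM in the uterine body. For all 3 the ampulla libraries lay below every uterine body library. The imprinted non-coding RNA gene MEG3 averaged 0.0879 ± 0.185 and 284 ± 149.5 CPM, with 42.5, 332, 302, 453 and 289 CPM in the 5 uterine body libraries, so heifer 10872 had the least. Its ampulla level rested mostly on the contralateral ampulla of heifer 11033, at 0.836 CPM, while RORB, AQP1 and CD248 were highest in an ampulla of heifer 11070. CD248, the endosialin of pericytes and fibroblasts, averaged 0.0620 ± 0.0976 CPM in the ampulla and 332 ± 119.7 in the uterine body.

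Genes of motile cilia were higher in the ampulla. Of 27 tested axoneme genes, 23 rose, 0 fell and 4 were not called, against 24.6% of all transcripts called higher. For 18 of the 27 the ampulla was higher without overlap of libraries, against 11.8% of all transcripts. Their median log2 fold change was 2.96 and ranged from 2.07 to 3.63 over single heifers. ROPN1L, a protein of the radial spokes, had 442 to 1259 CPM (median 785) in the ampulla, against 15.6, 26.5, 18.1, 26.7 and 50.7 CPM in the uterine body. The lowest ampulla library had more than any library of the uterine body, and the log2 fold change was 4.94 ± 0.28 (edgeR adjusted p 1.47e-09). LRRC23, also of the radial spokes, rose by 4.10 ± 0.33 and TEKT4, a tektin of ciliary microtubules, by 3.84 ± 0.27 on the log2 scale. TEKT1 averaged 502 ± 48.01 CPM in the ampulla and 38.5 ± 16.4 in the uterine body, and CFAP53 averaged 223 ± 51.3 and 27.3 ± 11.8.

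ROPN1L and FOXJ1 were also read in every uterine body library, most in heifer 11110. FOXJ1, the master transcription factor of motile cilia, had 82.3 to 656 CPM (median 269) in the ampulla, against 13.7, 22.5, 23.97, 20.98 and 47.2 CPM in the uterine body, a rise of 3.40 ± 0.45 on the log2 scale. Of 14 tested regulators of multiciliated cell formation, 5 rose and 5 fell, 35.7% each, against 24.6% and 31.2% of all transcripts. The list median of -0.09 on the log2 scale changed sign under 7 other settings, so the list as a whole had no clear direction. CCNO, CDC20B and MCIDAS, which act in the mass production of basal bodies before cilia grow, rose by 4.77 ± 0.59, 4.56 ± 0.91 and 4.11 ± 0.55 on the log2 scale. CDC20B ranged from 8.79 to 309 CPM among ampulla libraries. Genes of the Notch pathway, which holds cells back from the ciliated fate, were among those that fell: the receptor NOTCH1 changed by -2.87 ± 0.64 and the ligand DLL1 -2.05 ± 0.31 on the log2 scale. NOTCH1 stayed at or under 1.71 CPM in the ampulla, against 1.94, 2.46, 7.45, 3.38 and 3.198 CPM.

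Secretory genes of the oviduct were called higher for 7 of 9 tested members and lower for 2 (median log2 fold change 4.51). MSLN, mesothelin, a surface protein of oviduct epithelium and of mesothelium, had 296 to 2488 CPM (median 1130.3) in the ampulla, against 19.98, 5.64, 0.667, 10.1 and 11.1 CPM in the uterine body. OVGP1, the oviduct-specific glycoprotein that coats the egg and embryo, averaged 5.75 ± 1.92 CPM in the ampulla and 0.0820 ± 0.0588 in the uterine body and rose by 6.03 ± 0.60 on the log2 scale. The keratin gene KRT23 rose by 6.41 ± 0.61 on the log2 scale. The exceptions were FOLR1, a folate receptor, which fell by 1.02 on the log2 scale with a standard error of 0.23 and overlapped between regions, and CP, the copper protein ceruloplasmin, at 0.0480 ± 0.0455 CPM in the ampulla, against 2.42 ± 1.04 CPM. All 10 keratins tested rose, with a median of 3.14, against 24.6% of all transcripts called higher. KRT8 and KRT18, the keratin pair of simple epithelia, rose by 2.64 ± 0.25 and 3.28 ± 0.27, KRT19 by 2.15 ± 0.41 on the log2 scale, and KRT6A, at 1.700 ± 0.820 CPM in the ampulla, had 1 count in the uterine body.

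Beside these epithelial genes stand the markers of other cell types. The summed level of 16 stromal markers was 56.0 to 144 CPM in the ampulla libraries and 49724 to 89053 CPM in the uterine body libraries, and 4 of the 16 had 0 ampulla counts. All 14 tested fell, with a median log2 fold change of -8.63, or -8.53 with genes at 0 counts set to their bound. Over single heifers that median ran from -7.98 to -6.72. Of 17 endothelial markers, summing to 19.2 to 35.3 CPM in the ampulla and 1090 to 1544 CPM in the uterine body, all 11 tested fell, and for smooth muscle and pericytes all 10 tested fell, with sums of 108 to 418 and 1594 to 2269 CPM. These sums moved with the region beside every gene group described here, and their part in each result cannot be told apart from the region. All 12 tested collagens and fibrous matrix genes fell, with a median log2 fold change of -8.09, or -8.04 with such bounds. Over single heifers their median ran from -7.19 to -5.71.

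Of 7 tested myeloid markers 5 fell and 0 rose, with summed levels of 56.0 to 119 CPM in the ampulla and 223 to 728 CPM in the uterine body. ITGAM, an integrin chain of neutrophils and macrophages, changed by -4.69 ± 0.35 and CD14, a receptor for bacterial lipopolysaccharide, -3.24 ± 0.29 on the log2 scale, with 1.91 to 12.2 CPM in the ampulla against 81.05, 31.4, 20.3, 59.04 and 32.1 CPM in the uterine body. Of 12 tested lymphocyte markers 3 rose and 4 fell, 25.0% and 33.3%, near the 24.6% and 31.2% of all transcripts. GZMA, a granzyme of cytotoxic lymphocytes, rose by 3.47 ± 0.49, at 5.37 to 26.8 CPM against 0.298, 2.43, 1.39, 0.556 and 1.62, while the related granzyme GZMB changed by -4.67 ± 0.59 and the T cell gene CD8B -2.85 ± 0.42 on the log2 scale. Summed lymphocyte markers overlapped between regions, at 41.1 to 108 CPM in the ampulla and 44.3 to 805 CPM in the uterine body. The value of 805 was heifer 10882. In that library GZMA, GZMB and CD8B had 2.43, 1.98 and 16.3 CPM, while the joining chain gene JCHAIN had 707 CPM. The high sum is therefore not a measure of T cells.

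Of 5 tested mesothelial markers 4 rose, KRT5, MSLN, ALDH1A2 and WT1, and UPK3B fell. Their sum was 1766 to 4769 CPM in the ampulla and 35.4 to 365 CPM in the uterine body. The markers CALB2 and BNC1 were below the filter with 1 count each in the ampulla, and the part of mesothelium in the result was not tested. Of 6 tested nerve and Schwann cell markers, only S100B rose, by 5.09 ± 0.32 on the log2 scale, to 2164 ± 639.5 CPM in the ampulla against 61.3 ± 15.4 in the uterine body. The other 5 fell, and the Schwann cell marker SOX10 averaged 0.464 CPM in the ampulla and 22.8 in the uterine body.

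**Figure D2:**
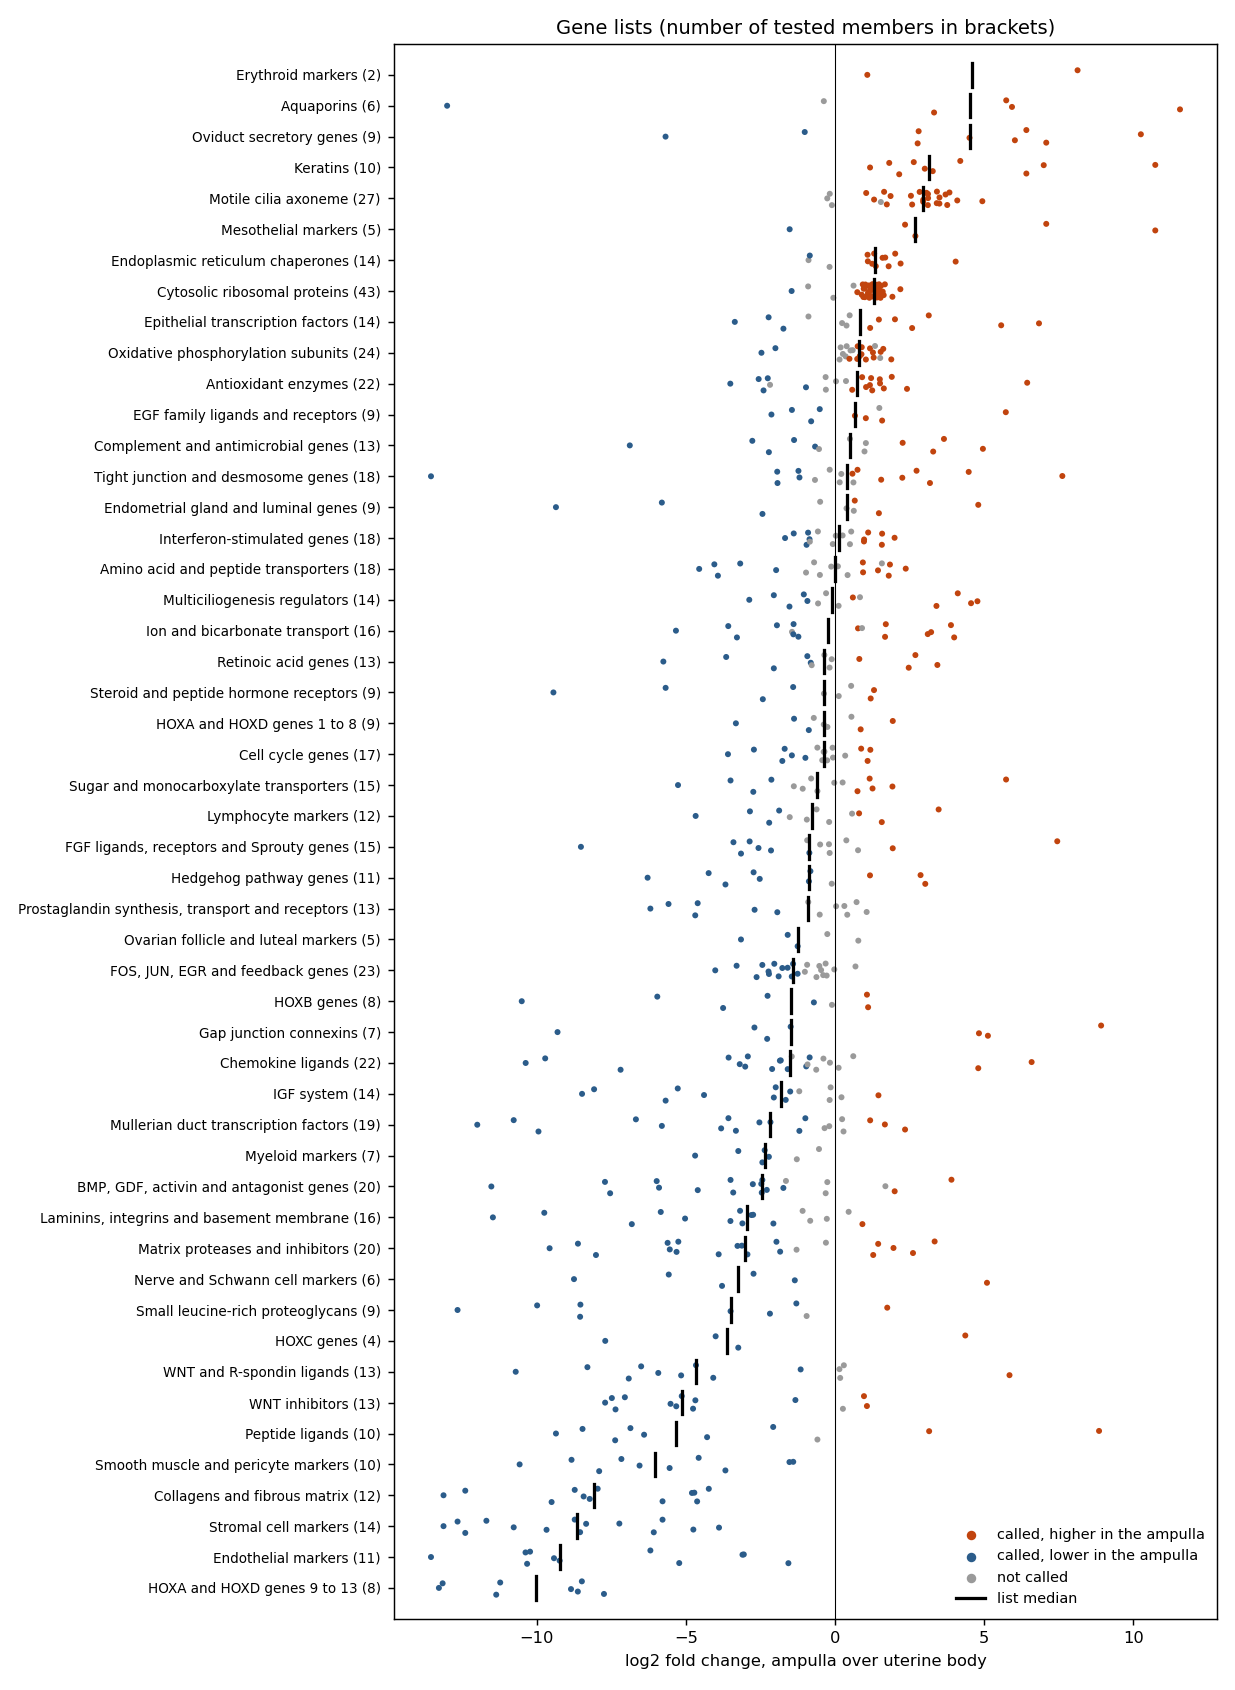
Log2 fold change, ampulla over uterine body (x axis), of each tested member of 50 gene lists (rows, with the number of tested members), coloured by call, with black bars at the medians. The lists run from erythroid markers and aquaporins at the top to HOXA and HOXD genes 9 to 13 at the bottom, where the median is -10.04.

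In the HOXA and HOXD clusters all 8 tested genes numbered 9 to 13 fell in the ampulla (median log2 fold change -10.04). The list median was smaller in size in every single heifer, between -9.11 and -7.93. Over all transcripts 31.2% were called lower. All 8 genes were lower without overlap between regions, against 14.1% of all transcripts. HOXA10, which marks the uterus along the Müllerian duct, had 1 count in the 10 ampulla libraries, against 107, 97.9, 53.6, 129 and 107 CPM in the uterine body, a ratio of 18918 (counting interval 3395 to 747260.00) toward the uterine body. HOXA11 had 0 to 0.257 CPM in the ampulla, against 319.5, 136, 103, 280.3 and 203 CPM. HOXD10 had 2 ampulla counts, against 30.4, 28.6, 42.6, 63.5 and 65.05 CPM. Among the 9 tested HOXA and HOXD genes numbered 1 to 8, only 3 fell and 2 rose. HOXA3 rose by 1.94 ± 0.30, with 4.002 to 13.1 CPM in the ampulla against 2.01, 2.17, 2.34, 1.75 and 1.53, and HOXA5 by 0.86 ± 0.29 on the log2 scale (edgeR adjusted p 0.0205). HOXA5 was not called when all transcripts of a gene were summed, at 0.62 with an edgeR adjusted p of 0.0607, or without heifer 11110, at 0.72 and 0.0842. A second, rarer transcript of HOXA5 was lower in the ampulla (-1.41), and a second transcript of HOXA3 was not called. The 3 that fell were HOXA2, HOXA6 and HOXA7, at -0.88 ± 0.33, -1.37 ± 0.32 and -3.32 ± 0.44 on the log2 scale. The call for HOXA2 was lost with the ampulla libraries of a heifer summed (edgeR adjusted p 0.0823), with no filter (0.103), when heifer 10872, 10882, 11033 or 11110 was left out (0.0596 to 0.152) and without the uterine body library of heifer 11033 (0.168), with log2 values of -0.99 to -0.55.

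The other clusters showed members at both ends. In HOXB, 2 of 8 tested genes rose and 5 fell. HOXB2 and HOXB4 rose by 1.07 ± 0.18 and 1.11 ± 0.19 on the log2 scale, with HOXB4 at 68.7 to 109 CPM in the ampulla and 35.3, 46.4, 45.2, 29.2 and 51.2 in the uterine body. HOXB6 fell to 60.7 to 96.4 CPM in the ampulla, against 596, 1284, 1532, 771 and 1365 CPM, and HOXB9 had 10 counts in the ampulla, against 31.4 ± 10.3 CPM. In HOXC, HOXC5 rose by 4.37 ± 0.49 on the log2 scale, at 7.86 to 18.95 CPM against 3.01, 0.356, 0.222, 0.516 and 0.394 CPM, while the other 3 tested fell. HOXC11 had 3 ampulla counts, against 3.005 ± 1.19 CPM in uterine bodies. Counting the more abundant transcript of each gene, no tested gene of number 9 or higher was called higher in the ampulla in any cluster, while genes of number 5 or lower went both ways, with HOXA2 and HOXB5 lower.

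**Figure D3:**
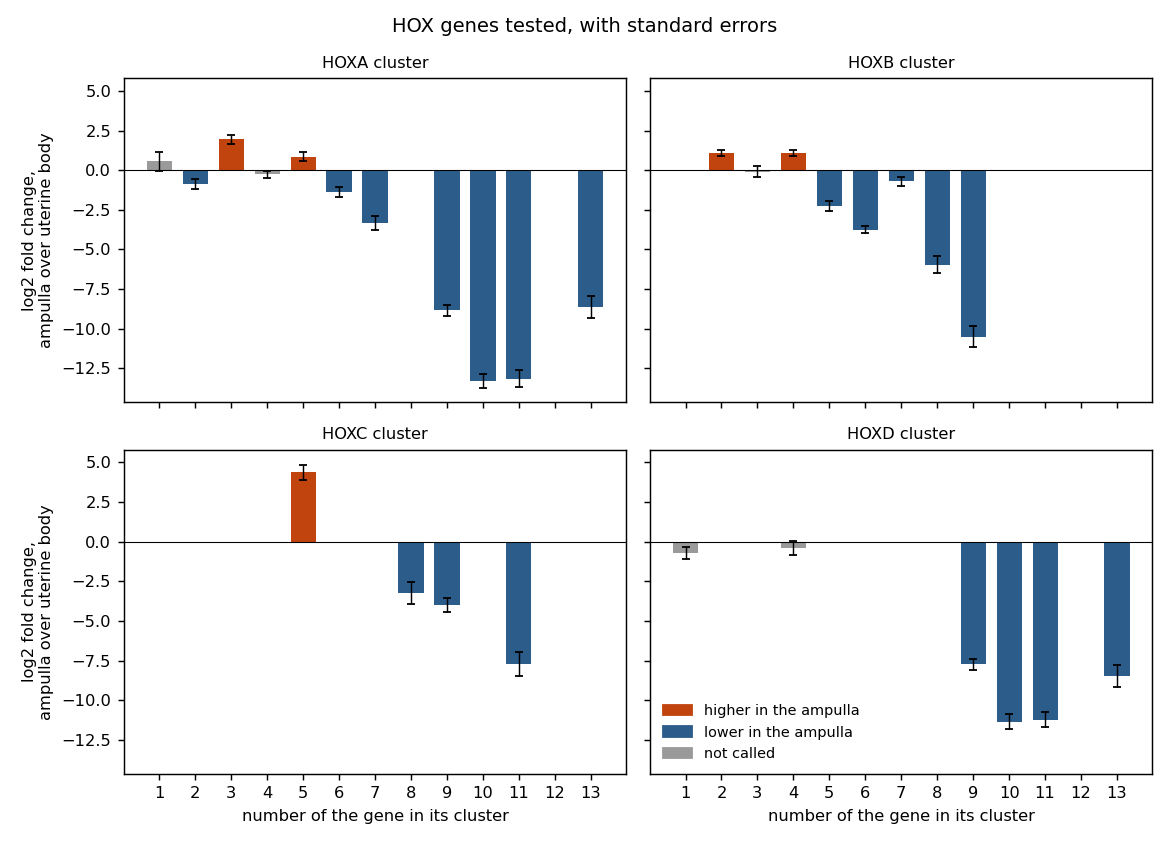
Log2 fold change, ampulla over uterine body, with standard error (y axis) for the tested HOX genes of the 4 clusters by their number in the cluster (x axis). Called increases stop at number 5, and numbers 9 to 13 lie between -13.28 and -4.00.

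Müllerian duct transcription factors mostly fell, 12 of 19, and 3 rose. HAND2, which in mice carries progesterone signals in uterine stroma, had 0 to 0.708 CPM (median 0) in the ampulla, against 250.4, 89.5, 44.5, 135 and 104 CPM. GATA2, a partner of the progesterone receptor in mice, had 0.0473 to 0.592 CPM, against 289, 307, 242, 296 and 286 CPM, and its uterine body values lay close together. MSX1, a homeobox gene of uterine epithelium in mice, changed by -5.80 ± 0.34 on the log2 scale, and TCF21, of mesenchymal cells, had 1 count in the ampulla. EMX2, a homeobox gene of the urogenital tract, rose by 1.67 ± 0.32, at 195 to 1192 CPM against 139.8, 127, 93.99, 95.6 and 134 CPM, and WT1 by 2.35 ± 0.64 on the log2 scale at 1.14 ± 0.383 CPM. Among epithelial factors 7 of 14 rose and 3 fell. SPDEF, an ETS factor of mucus-secreting cells, rose by 6.84 ± 0.45 on the log2 scale, with 55.5 to 235 CPM against 0.521, 0.777, 1.001, 0.437 and 2.07 CPM. FOXA1 rose by 5.57 ± 0.76 and the splicing regulator ESRP2 by 3.14 ± 0.48, while TFAP2C and ELF3 changed by -3.36 ± 0.76 and -2.23 ± 0.59 on the log2 scale, with a second ELF3 transcript not called.

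Several families had one member high at each end of the tract. Of 6 tested aquaporins 4 rose and 1 fell: beside AQP9 and AQP1, AQP6 rose by 5.93 ± 0.53 on the log2 scale and AQP5, at 1.79 ± 0.492 CPM in the ampulla, had 3 counts in the uterine body. Of 7 connexins, which form gap junctions, 3 rose and 4 fell. GJA5 had 402 to 731 CPM (median 479.9) in the ampulla, against 3.27, 11.5, 28.6, 21.8 and 17.6 CPM, and GJB1 rose by 4.82 ± 0.35 on the log2 scale. GJA4, a connexin of vessel walls, ran the other way, at 0 to 0.246 CPM in the ampulla against 29.3, 42.4, 42.3, 49.5 and 61.1 CPM. Neither GJA5 nor GJA4 overlapped between regions. Of 18 tight junction and desmosome genes 8 rose and 5 fell. CLDN2, a claudin that forms pores for cations and water, rose by 7.62 ± 0.59 on the log2 scale, with 4.88 to 12.2 CPM against 0, 0.0648, 0, 0 and 0.148. The desmosome genes DSC3 and PKP2 rose by 4.48 ± 0.65 and 3.18 ± 0.20 and CLDN3 by 2.26 ± 0.34, whereas CLDN8, which tightens junctions, changed by -1.93 ± 0.38 on the log2 scale and overlapped between regions.

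**Figure D4:**
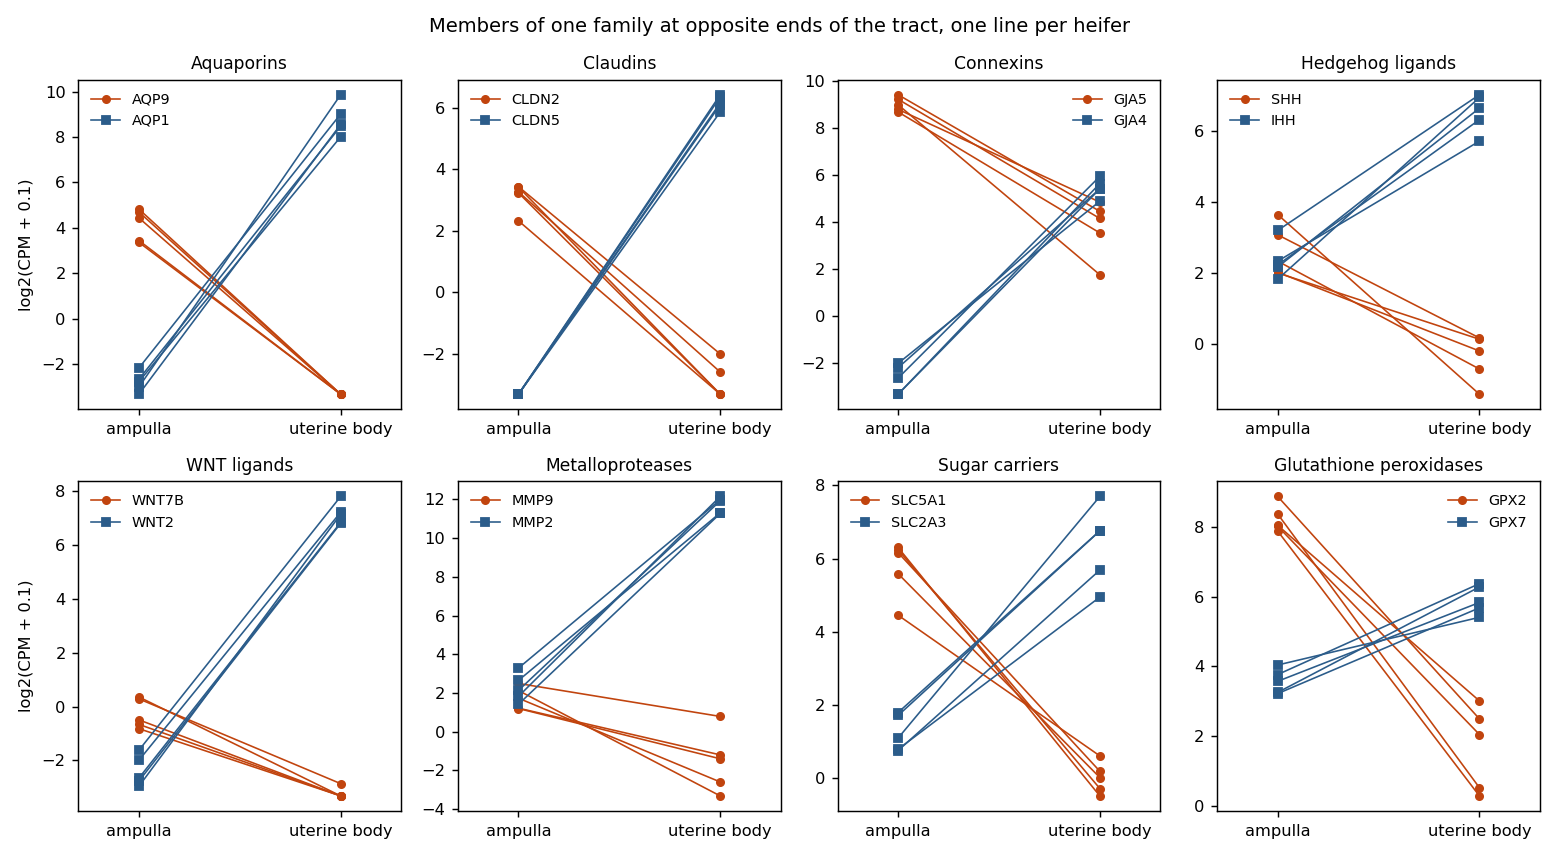
Levels in ampulla (left) and uterine body (right) as log2(CPM + 0.1), 1 line per heifer, for pairs of genes from 8 families; the pairs were chosen with results known. In each panel one gene is higher in the ampulla of 5 of 5 heifers and the other lower in the ampulla of 5 of 5 heifers.

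Of 11 tested hedgehog genes 3 rose and 7 fell, and the ligands moved in opposite directions. Hedgehog ligands leave epithelium and act on stroma through the receptor PTCH1, and both PTCH1 and the inhibitor HHIP are switched on by the signal. SHH rose by 3.02 ± 0.47 on the log2 scale, with 2.83 to 12.5 CPM in the ampulla against 1.005, 0.518, 0.779, 0.278 and 1.03 CPM in the uterine body. IHH, the ligand that relays progesterone from epithelium to stroma in mice, fell to 2.06 to 9.52 CPM in the ampulla, against 52.5, 123, 79.9, 100.04 and 129.95 CPM. PTCH1 and HHIP changed by -3.67 ± 0.69 and -6.28 ± 0.71, and the co-receptor BOC rose by 2.87 ± 0.27 on the log2 scale.

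Most WNT ligands and secreted WNT inhibitors fell. Of 13 tested WNT and R-spondin ligands 9 fell and 1 rose (median log2 fold change -4.66), and of 13 WNT inhibitors 10 fell and 2 rose (median -5.14). Over single heifers the ligand median ran from -4.06 to -3.40 and the inhibitor median from -5.57 to -3.29. WNT2 had 0 to 0.301 CPM in the ampulla, against 149, 114, 112, 224 and 141 CPM, without overlap. WNT6 changed by -6.91 ± 0.54 and RSPO3, a secreted enhancer of WNT signals, -8.30 ± 0.74 on the log2 scale. WNT7B was the ligand that rose, by 5.85 ± 1.01 on the log2 scale, at 0.780 ± 0.340 CPM in the ampulla and 1 count in the uterine body. Of the secreted inhibitors, SFRP1 had 1.22 to 9.28 CPM in the ampulla, against 533, 432, 279, 834 and 491 CPM, SFRP4 changed by -7.71 ± 0.45 and DKK2 -7.36 ± 0.60 on the log2 scale. KREMEN1, a membrane receptor for DKK proteins, rose by 1.07 ± 0.23 on the log2 scale and overlapped between regions. The stromal, endothelial and muscle sums given above moved with these genes, and their part was not tested.

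Of 20 BMP, GDF, activin and antagonist genes 14 fell and 2 rose. GDF7 had 1 count in the ampulla, against 21.3, 18.6, 25.03, 67.7 and 17.9 CPM in the uterine body. GDF6 had 3 ampulla counts, all in the contralateral ampulla of heifer 11033, and the BMP antagonist NOG changed by -7.54 ± 0.77 on the log2 scale. NODAL, the left-right signal of embryos, and GDF9, best known from oocytes, rose by 3.90 ± 0.75 and 2.00 ± 0.33 on the log2 scale at 1.51 ± 0.668 and 3.995 ± 0.789 CPM. Of 15 FGF and Sprouty genes 7 fell and 2 rose. SPRY4, a feedback inhibitor of receptor tyrosine kinases, rose by 7.45 ± 0.80, with 1.07 to 20.6 CPM against 0.0372, 0, 0.111, 0.0795 and 0.0492, while the ligand FGF10 changed by -3.40 ± 0.38 on the log2 scale. In the EGF family 4 of 9 rose and 4 fell: the ligand BTC rose by 1.58 ± 0.22 and the receptor ERBB2 by 1.03 ± 0.18, and the ligand NRG2 changed by -2.13 ± 0.28 on the log2 scale. In the IGF system 9 of 14 tested genes fell and 1 rose. PAPPA, a protease that frees IGF from its binding proteins, had 0 to 0.515 CPM in the ampulla, against 56.00, 18.1, 22.3, 107 and 43.7 CPM. IGFBP1 had 2 ampulla counts, against 23.1, 3.24, 1.89, 0.397 and 0.738 CPM, most of it in heifer 10872, and the growth hormone receptor GHR changed by -5.68 ± 0.34 on the log2 scale. The related protease PAPPA2 rose by 1.46 ± 0.51 on the log2 scale (edgeR adjusted p 0.0235) and was higher in 4 of 5 heifers. Its call was lost when heifer 10882, 11033, 11070 or 11110 was left out, with log2 values of 1.23 to 1.41 and edgeR adjusted p of 0.0574 to 0.108, and without the uterine body library of heifer 11033 (0.0663).

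Of 10 tested peptide ligands 7 fell and 2 rose. GRP, gastrin-releasing peptide, had 0.322 to 32.7 CPM (median 2.85) in the ampulla, against 11904, 1658, 1477, 1047 and 2753 CPM in the uterine body, so heifer 10872 stood far above the others. The endothelins EDN1 and EDN3 contract smooth muscle. EDN1 changed by -7.37 ± 0.59 on the log2 scale. EDN3 had 0 to 0.0492 CPM in the ampulla, near the floor, against 6.29, 6.48, 4.95, 7.63 and 3.84 CPM in the uterine body. NTS, neurotensin, rose by 3.15 ± 0.57 on the log2 scale, with 15.8 to 130.3 CPM in the ampulla against 3.200, 5.77, 3.89, 3.69 and 11.4 CPM. UCN3, a ligand of the second corticotropin-releasing hormone receptor, averaged 2.83 ± 1.19 CPM in the ampulla and had 0 counts in the uterine body, at least 110-fold higher. Of 22 tested chemokines 13 fell and 2 rose. CCL26, an attractant of eosinophils, and CXCL17, of mucosal epithelium, rose by 6.59 ± 0.73 and 4.80 ± 0.44 on the log2 scale. CCL14 had 0 to 0.322 CPM in the ampulla against 82.4, 98.9, 72.5, 9.26 and 76.02 CPM, and CXCL12, a stromal attractant, had 3 ampulla counts and 19.5 ± 12.4 CPM in the uterine body.

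Of 9 tested receptor genes 4 fell and 2 rose. OXTR, the oxytocin receptor, had 0 to 0.965 CPM in the ampulla, against 270.5, 24.7, 26.6, 50.7 and 64.9 CPM, again highest in heifer 10872. PGR, the progesterone receptor, changed by -2.42 ± 0.33 on the log2 scale, at 1.53 to 6.68 CPM against 15.1, 26.8, 29.9, 14.5 and 17.2 CPM. PGRMC1, a membrane-bound haem protein also linked to progesterone, rose by 1.31 ± 0.26 on the log2 scale and overlapped between regions. Of 13 prostaglandin genes 6 fell and 0 rose. The prostaglandin E synthase PTGES changed by -5.58 ± 0.50, the prostaglandin transporter SLCO2A1 -6.19 ± 0.50 and the prostaglandin D receptor PTGDR -4.69 ± 0.46 on the log2 scale.

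Matrix proteases and their inhibitors had members at both ends, with 5 of 20 tested higher and 13 lower. TIMP4, an inhibitor of metalloproteases, rose by 2.61 ± 0.26 on the log2 scale, with 48.5 to 100.02 CPM in the ampulla against 6.66, 12.9, 13.9, 14.8 and 15.9 CPM. MMP9 rose by 3.34 ± 0.64 and MMP7, a protease of glandular epithelium, by 1.96 ± 0.52 on the log2 scale, and both overlapped between regions. MMP2, a gelatinase of stroma, had 0.534 to 11.3 CPM in the ampulla, against 4054, 3901, 2530.2, 4557 and 2476 CPM. ADAMTS4, which cuts proteoglycans, and LOXL2, which crosslinks collagen, changed by -8.62 ± 0.46 and -8.01 ± 0.40 on the log2 scale. PRELP was the one proteoglycan of its class that rose, by 1.75 ± 0.30, beside ASPN at -9.99 ± 0.48 on the log2 scale and DCN. Among laminins and integrins the laminin chain LAMC3 had 0 to 0.579 CPM in the ampulla, against 606, 418, 319, 567 and 402 CPM, and ITGB8, which activates TGF-beta, rose by 0.92 ± 0.26 on the log2 scale and was higher in 4 of 5 heifers, with a second transcript not called.

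Of 15 sugar and monocarboxylate carriers 5 rose and 4 fell, 33.3% and 26.7%. Of 18 amino acid and peptide carriers 6 rose and 5 fell, 33.3% and 27.8%, against 24.6% and 31.2% of all transcripts. SLC5A1, the sodium-coupled glucose carrier of gut and kidney, had 12.8 to 101 CPM (median 66.3) in the ampulla, against 1.04, 0.615, 0.723, 0.914 and 1.43 CPM. SLC2A3, a facilitative glucose carrier of high affinity, ran the other way, at 0.708 to 4.23 CPM against 30.8, 208, 51.4, 108 and 108 CPM. The neutral amino acid carrier SLC1A4 rose by 2.37 ± 0.24 and the peptide carrier SLC15A2 to 75.6 ± 33.3 CPM in the ampulla, against 19.7 ± 8.02 CPM, and the glutamate carrier SLC1A1 changed by -3.93 ± 0.24 on the log2 scale. Of 16 ion and bicarbonate genes 7 rose and 7 fell. CA2, a carbonic anhydrase, had 140.2 to 538 CPM in the ampulla, against 40.5, 4.21, 4.73, 61.4 and 24.4 CPM, and SLC9A3, a sodium-proton exchanger, rose by 3.89 ± 0.36 on the log2 scale. CFTR, a channel for chloride and bicarbonate, had 0.0502 to 0.965 CPM in the ampulla, against 105, 9.98, 6.896, 21.1 and 11.9 CPM, and the anion exchanger SLC26A6 changed by -3.29 ± 0.27 on the log2 scale. Heifer 10872 had the highest CFTR level among the uterine bodies.

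Retinoic acid is made from retinol by dehydrogenases. ALDH1A1 and ALDH1A2, which make the acid, rose by 2.47 ± 0.21 and 2.69 ± 0.56 on the log2 scale. ALDH1A2 had 528 to 877 CPM in the ampulla, against 257, 20.2, 31.1, 345 and 75.5 CPM, so its uterine body values differed widely between heifers. CRABP1, which binds the acid in cells, rose by 3.43 ± 0.47 on the log2 scale. The retinol-handling genes LRAT and RDH10 changed by -3.65 ± 0.27 and -2.05 ± 0.32 on the log2 scale. Over all 13 tested members 4 rose and 5 fell, 30.8% and 38.5%, near the 24.6% and 31.2% of all transcripts.

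Of 13 complement and antimicrobial genes 4 rose and 5 fell, 30.8% and 38.5%, against 24.6% and 31.2% of all transcripts. C3, the central complement protein, had 423 to 3930.3 CPM (median 2095) in the ampulla, against 146, 122, 137, 133 and 564 CPM, so the regions overlapped through heifer 11110. C1S, of the classical pathway, changed by -6.88 ± 0.28 on the log2 scale. Of 18 interferon-stimulated genes 6 rose and 5 fell, 33.3% and 27.8%. ISG15 rose by 1.57 ± 0.38 and IRF1 changed by -1.67 ± 0.42 on the log2 scale, and all 18 overlapped between regions. In heifer 11070 ISG15 had 10.1 CPM in the ipsilateral and 17.6 CPM in the contralateral ampulla, against 12.9 CPM in the uterine body. Of 22 antioxidant enzymes 12 rose and 5 fell. GPX2, a glutathione peroxidase of epithelium, had 148 to 474 CPM in the ampulla, against 7.93, 1.33, 1.11, 4.01 and 5.51 CPM. PRDX6 rose by 1.90 ± 0.23, and GPX7 and the haem oxygenase HMOX1 changed by -2.40 ± 0.22 and -2.56 ± 0.18 on the log2 scale.

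Of 43 tested ribosomal protein genes 39 rose and 1 fell (median log2 fold change 1.29), and of 24 subunits of oxidative phosphorylation 13 rose and 2 fell (median 0.79). RPLP1 had 4054 to 19187 CPM (median 9975) in the ampulla, against 4299, 2397, 2166, 1863 and 3017 CPM, and COX5B rose by 1.62 ± 0.29 on the log2 scale; both overlapped between regions. Multigene families of this kind share reads with pseudogenes, so single members are uncertain. Chaperones of the endoplasmic reticulum, which fold secreted proteins, rose in 11 of 14 cases and fell in 1. SDF2L1 had 58.9 to 1012 CPM (median 241) in the ampulla, against 20.1, 11.3, 6.23, 13.8 and 17.3 CPM, and HSP90B1 1107 to 16624 CPM against 1119, 1234, 575, 714 and 927 CPM. CRELD2, another stress-induced chaperone gene, rose by 2.20 ± 0.40 on the log2 scale. The SDF2L1 values did not overlap between regions, and those of HSP90B1 did, through the contralateral ampulla of heifer 11070 at 1107 CPM. SDF2L1, HSP90B1 and CRELD2 were each higher in the ipsilateral than in the contralateral ampulla of every heifer, though no transcript was called between sides. Ipsilateral HSP90B1 ran from 1816 to 16624 CPM and contralateral HSP90B1 from 1107 to 4975 CPM.

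Of 17 tested cell cycle genes 3 rose and 6 fell, 17.6% and 35.3%, against 24.6% and 31.2% of all transcripts. CCNB1, the mitotic cyclin, had 1.698 to 13.5 CPM in the ampulla, against 81.4, 74.5, 65.96, 34.6 and 64.2 CPM. Of 23 FOS, JUN, EGR and feedback genes 13 fell and 0 rose. FOS fell by 2.44 on the log2 scale with a standard error of 0.67, yet its ampulla libraries ran from 5.47 to 765 CPM with a median of 13.3, against 70.1, 372, 67.2, 291 and 55.5 CPM. The highest of all 15 was the ipsilateral ampulla of heifer 11070. The call for FOS was lost without the heifer block (-1.34, edgeR adjusted p 0.279) and with the ampulla libraries of a heifer summed (-1.96, edgeR adjusted p 0.0739). FOSB and NR4A1 changed by -3.30 ± 0.77 and -4.01 ± 1.04 on the log2 scale, and both overlapped between regions.

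For 191 genes the 95% interval of the log2 fold change lay within 0.5 of 0 in both directions. The 6 with the highest CPM were ACTG1, a cytoskeletal actin, ALDH2, which clears aldehydes, the RNA helicase gene DDX5, the nucleolar protein gene NCL, the translation factor gene EIF3A and the deubiquitinase gene USP22. ACTG1 averaged 2069 ± 243 CPM in the ampulla and 2029 ± 493 in the uterine body, with a log2 fold change of 0.01 ± 0.20. DDX5 averaged 868 ± 53.6 and 854 ± 150.05 CPM, and ALDH2 1016 ± 162 and 929 ± 199 CPM. The log2 fold changes of the 6 lay between -0.03 and 0.13, and those of all but ALDH2 changed sign under at least 1 other setting.

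No transcript was called between the ampulla of the ovulating side and that of the other side. Since both ampullae of a heifer share its uterine body, the ipsilateral minus contralateral contrast tests whether the ampulla-body difference depends on the side. With edgeR 0 of 14175 transcripts were called and 606 had an unadjusted p under 0.05, DESeq2 called 2, and the count was 43 with no filter on low counts and 3 in a fit of all 34 libraries. The smallest edgeR adjusted p was 0.306, for TIMP2, an inhibitor of metalloproteases. TIMP2 had 5076, 4368, 4736, 1731 and 1774 CPM in the ipsilateral ampulla and 881, 2006, 1138, 567 and 473 CPM in the contralateral ampulla, higher on the ipsilateral side of 5 of 5 heifers, with a log2 difference of 1.83 ± 0.30. The 2 called by DESeq2, in which the ipsilateral side was higher, were TIMP2 and SPON2, an extracellular matrix protein gene, named here after their values were seen. SPON2 had 352, 155, 316, 94.0 and 48.3 CPM on the ipsilateral side and 26.6, 67.2, 22.9, 31.2 and 21.7 CPM on the contralateral side.

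The last question is what sets the uterine body apart from the upper horn as a partner of the ampulla. As the ampulla is shared, the difference between the comparisons is that of uterine body and upper horn, tested over all 34 libraries. Of 17241 transcripts 4 were called, 0.0232%, with 3 (0.0174%) higher and 1 (0.0058%) lower in the uterine body, and 1927 had an unadjusted p under 0.05. HOXA13, the last gene of its cluster and a marker of cervix and vagina in mice, had 11.2, 21.5, 9.96, 8.62 and 8.52 CPM in the uterine body, against 2.67, 2.14, 0.647, 0.192 and 0.557 CPM in the upper horn, on the scale of all 34 libraries. The values did not overlap, and its log2 fold change was 3.59 ± 0.49 (edgeR adjusted p 0.000293). The mid horn lay between, at 7.97, 5.29, 3.30, 2.88 and 2.75 CPM, so each heifer had its highest level in the uterine body and its lowest endometrial level in the upper horn.

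HOXD13, below the 10 CPM asked of named genes and singled out after its values were seen, showed the same order. It had 7.45, 4.26, 0.668, 3.63 and 2.34 CPM in the uterine body, against 0.0439, 0.0397, 0, 0.0309 and 0 CPM in the upper horn, and 7.10 ± 0.62 as log2 fold change (edgeR adjusted p 9.13e-08). In the ampulla HOXA13 had 7 counts, most of them in the contralateral ampulla of heifer 11033, and HOXD13 1 count over all libraries. A non-coding RNA gene, LOC101907241, had a log2 fold change of 2.56 ± 0.39 (edgeR adjusted p 0.00223), with 52.3 ± 22.5 CPM in the uterine body and 8.94 ± 2.55 in the upper horn. That call was lost without heifer 10882 (edgeR adjusted p 0.204) or 11070 (0.0759). PENK, the enkephalin precursor, was lower in the uterine body, at 4.46, 9.75, 17.7, 26.9 and 18.8 CPM, against 9.67, 29.8, 70.0, 258 and 40.7 CPM in the upper horn (log2 fold change -1.86 ± 0.36, edgeR adjusted p 0.0489). Its call was lost without any 1 of the heifers, with edgeR adjusted p of 0.138 to 0.492, without the heifer block (0.619) and with DESeq2 size factors (0.0674). In the ampulla PENK stayed at or under 0.380 CPM on the same scale of all 34 libraries.

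**Figure D5:**
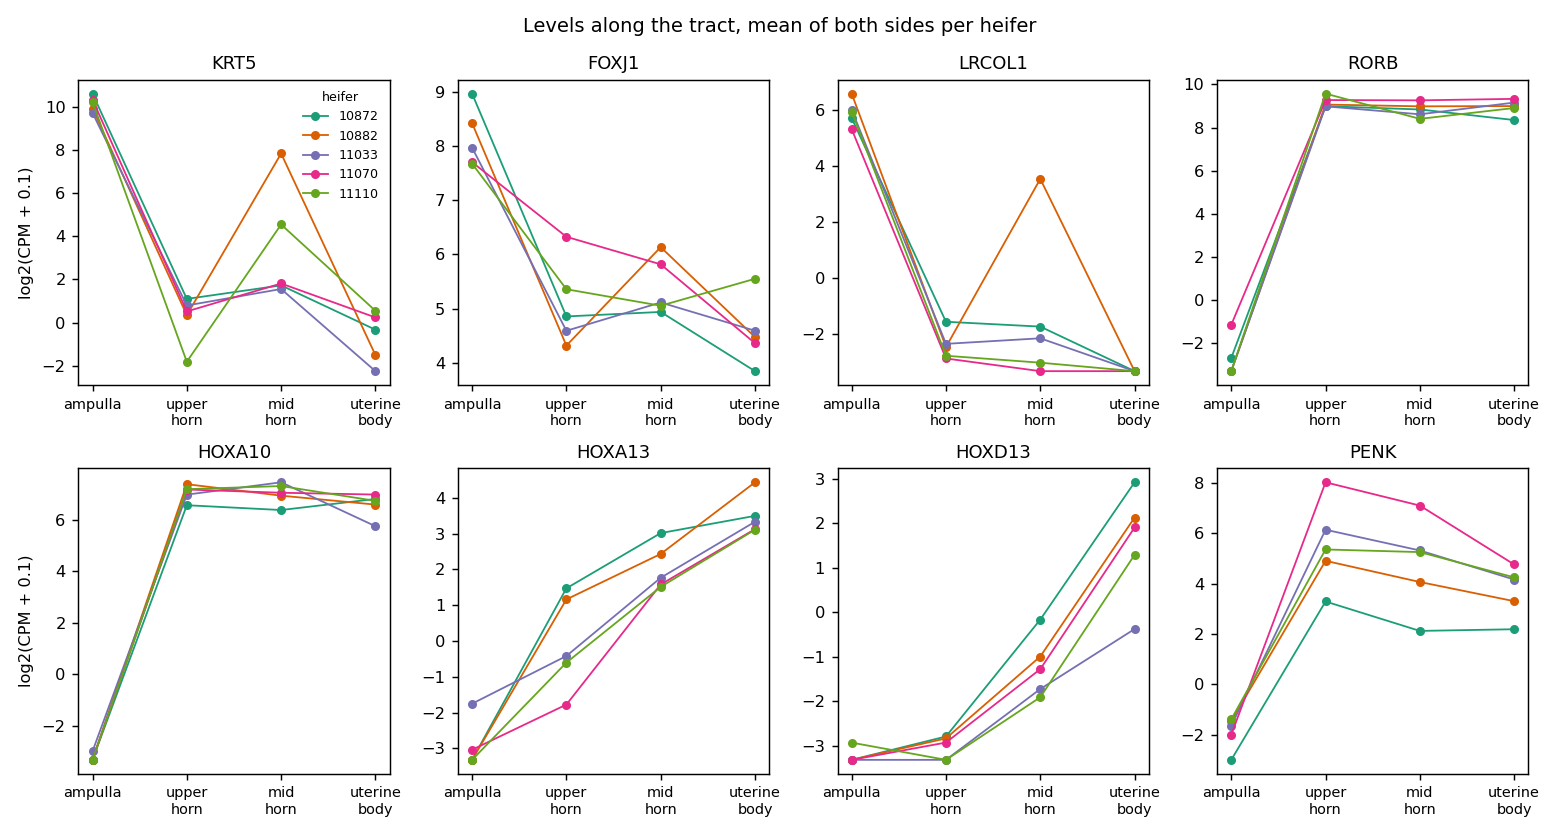
Levels of 8 genes as log2(CPM + 0.1) (y axis, scale of all 34 libraries) in the ampulla, upper horn, mid horn and uterine body, 1 line per heifer, as the mean of both sides, with only the contralateral upper horn for heifer 11110. KRT5, FOXJ1 and LRCOL1 are highest in the ampulla, HOXA10 and RORB are near level along the uterus, HOXA13 and HOXD13 climb from upper horn to uterine body and the mean of PENK is 81.6, 46.9 and 15.5 CPM in upper horn, mid horn and uterine body; the mid horn of heifer 10882, with 1 library that carried oviduct transcripts, stands out in KRT5 and LRCOL1.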

How the data were processed

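RNA from bovine ampulla and uterine body was sequenced, using (per the labels' protocols) bead homogenisation, the Qiagen RNeasy microkit and the NEBNext Ultra II Directional library kit. The authors deposited whole-number read counts per RefSeq transcript; the submitters' processing notes list STAR 2.7.9a, SAMtools, HTSeq and cutadapt without their roles. Not given in the sources used here: genome build, annotation, strand setting and treatment of reads shared by transcripts. Of 38568 transcripts, 26092 were matched to 21284 genes by accession in RefSeq's table for ARS-UCD2.0, from which names alone were taken.

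Counts were tested with edgeR 4.0.16 (limma 3.58.1, R 4.3.3) by the quasi-likelihood F test after TMM scaling and the filterByExpr filter, with group and heifer as terms. The contrast was the mean of ipsilateral and contralateral ampulla minus uterine body over 15 libraries, Benjamini-Hochberg adjusted over all 14175 transcripts, with calls at an adjusted p under 0.05. The contrast of ampulla sides came from the same fit, and uterine body minus upper horn from a fit of all 34 libraries. Ribosomal RNA features stayed in. The procedure was also run on simulated counts. Far fewer transcripts were changed there than were called here, so that run does not test TMM scaling with this many differences. A gene with 0 counts in a region has a bound from 3 counts over that region's libraries, and one with 1 to 3 counts a ratio with an exact 95% interval; both cover counting error only, as PCR copies are not told apart.

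Same-numbered libraries come from the same heifer by the labels, so the heifer was a block. Deviations from group means correlated with a median of 0.15 for libraries of the same heifer (15 pairs) and -0.03 otherwise (60 pairs). Within groups no 2 libraries agreed within sampling noise. The 12 genes with the highest and the 12 with the lowest log2 fold change were named among official symbols at 10 CPM or more that moved the same way in 5 heifers. From each of 50 gene lists up to 3 called members in each direction and defining members were named, as were the 6 most abundant genes with an interval within 0.5 of 0. The members and lists were chosen with earlier results of these data known. Alternatives were no heifer block, DESeq2 1.42.0 size factors and test, no filter, all 34 libraries, summed ampulla libraries, transcripts summed per gene, no ribosomal RNA features and single heifers or libraries left out. Some genes that the rule names are not reported here.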

Additional observations from a re-analysis of the deposited data

Results flagged for a closer look

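In 24 of 291 sets of 5 heifers with a level of 0.5 CPM or more, 1 heifer's value lay apart from the other 4 on the log2 CPM scale. The gap to its nearest neighbour was then over 0.71 of the whole range of log2 CPM, Dixon's critical value, which chance passes in about 1 in 20 groups. Of the 24, 8 were the uterine body of heifer 10872. Levels are given below in CPM and gaps as shares of the log2 range, so the gaps cannot be worked out from the CPM alone, and other genes would pass on a linear scale.

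Heifer 10872 was highest in the uterine body for NCL (1055 CPM, the others 708 to 775, gap 0.773), HOXC5 (3.01 CPM, the others 0.222 to 0.516, gap 0.713) and PAPPA2 (2.01 CPM, the others 0.324 to 0.437, gap 0.852). Heifer 10872 was lowest in the uterine body for MEG3 (42.5 CPM, the others 289 to 453, gap 0.811), DKK2 (0.595 CPM, the others 4.63 to 5.56, gap 0.914) and HHIP (1.005 CPM, the others 7.84 to 10.7, gap 0.867). It was also lowest for SLCO2A1 (3.42 CPM, the others 9.84 to 13.97, gap 0.749) and TIMP4 (6.66 CPM, the others 12.9 to 15.9, gap 0.759).

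Other high values in the uterine body were HOXA13 in heifer 10882 (21.9 CPM, the others 8.61 to 10.7, gap 0.766), GDF7 in heifer 11070 (67.7 CPM, the others 17.9 to 25.0, gap 0.749) and C3 in heifer 11110 (564 CPM, the others 122 to 146, gap 0.886). Other low values in the uterine body were CCL14 in heifer 11070 (9.26 CPM, the others 72.5 to 98.9, gap 0.868), CRELD2 in heifer 11033 (18.1 CPM, the others 40.4 to 48.3, gap 0.816) and CCNB1 in heifer 11070 (34.6 CPM, the others 64.2 to 81.4, gap 0.722).

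High values in the ampulla, as the mean of both sides, were DDX53 in heifer 11033 (18.9 CPM, the others 7.89 to 9.08, gap 0.767), GJB7 in heifer 11033 (142 CPM, the others 53.3 to 64.9, gap 0.712) and CXCL17 in heifer 11110 (55.3 CPM, the others 20.2 to 23.9, gap 0.854). Further high values in the ampulla were ITGB8 in heifer 11033 (185 CPM, the others 110.5 to 129, gap 0.72), HMOX1 in heifer 11110 (30.02 CPM, the others 13.4 to 16.04, gap 0.741) and NR4A1 in heifer 11070 (2.18 CPM, the others 0 to 0.0565, gap 0.774). Low values in the ampulla were COL3A1 in heifer 10882 (0.106 CPM, the others 9.43 to 14.5, gap 0.912), CLDN2 in heifer 11070 (4.90 CPM, the others 9.29 to 10.7, gap 0.82) and CA2 in heifer 11070 (186 CPM, the others 393 to 449, gap 0.866). Another low value in the ampulla was SLC26A6 in heifer 11033 (2.34 CPM, the others 4.53 to 5.21, gap 0.749).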

How the results depend on the processing

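All alternatives gave between 6417 and 10613 calls for ampulla against uterine body, within 1.5 times of 7903. These counts are not shares of the same total. The calls were 6417 of 14149 transcripts without heifer 10882, 10613 of 17241 with all 34 libraries and 10159 of 35691 with no filter, against 7903 of 14175. The fit with no replicate block for the heifer gave 7955; the block changed no other call among the genes named than FOS and PENK. For ipsilateral against contralateral ampulla the count moved from 0 to 43 with no filter, 3 with all 34 libraries and 2 with the DESeq2 test. For uterine body against upper horn it was 150 with no filter, 12 with the DESeq2 test and 2 to 5 with a heifer or a pair of horn libraries left out, against 4. The causes were not tested.

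Genes near 0 changed sign. ACTG1 was -0.0018 with no block, -0.078 with DESeq2 size factors and with the DESeq2 test, and ran from -0.089 to 0.18 with a heifer or library left out, below 0 without heifer 11033, heifer 11110 or the uterine body of 11033. DDX5 was -0.066 in both DESeq2 settings and ran from -0.052 to 0.159 with a heifer or library left out, below 0 without heifer 11033 or its uterine body, and NCL -0.014 in both DESeq2 settings. EIF3A was -0.087 in both DESeq2 settings and ran from -0.025 to 0.083 with a heifer or library left out, below 0 without heifer 10882, heifer 11033 or the uterine body of 11033. USP22 was 0.018 with no filter, 0.062 with all 34 libraries, 0.091 with summed ampulla libraries and ran from -0.059 to 0.069 with a heifer or library left out, above 0 without heifer 10872, heifer 11070 or the contralateral ampulla of 11070. Depth limits genes with 0 to 3 counts in a region to bounds or wide intervals.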

Other observations

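Some further genes stood out in single libraries, and were chosen after their values were seen. They are not independent of the lists above, since some, such as EGR1, belong to families counted there. The immunoglobulin gene IGHG1 had 4324 CPM and the joining chain gene JCHAIN 707 CPM in the uterine body of heifer 10882, while IGHG1 had 8.68 to 181 CPM in the other uterine bodies. APOA1, the main protein of high-density lipoprotein, had 975 and 662 CPM in the ampulla libraries of heifer 11110 and at most 46.2 CPM in the other ampulla libraries. In the ipsilateral ampulla of heifer 11070 the early response genes EGR1, CCN1 and ID1 had 363, 399 and 132 CPM beside FOS.

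The matrix protease gene MMP3 was at or under 0.193 CPM in the ampulla and had 22.1, 3.60, 0.501, 57.3 and 139 CPM in the uterine body. SAA3, an acute-phase protein gene, had 104 to 1189 CPM in the ampulla, against 185 CPM in the uterine body of heifer 10872 and 1.28 to 19.1 CPM in the other uterine bodies. In single uterine bodies, the protease inhibitor gene CST6 had 634 CPM in heifer 10872, THBS3 had 424 CPM in heifer 11070 and the chemokine gene CXCL8 had 24.7 CPM in heifer 10882.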
